A study of Mus musculus with 2 samples.

Results

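Collagens are the triple-helical proteins that give the lung its tensile strength. Every mouse gene whose symbol reads Col, a number, a and a number was taken as a member, which gave 44 of the 31053 genes in the files, and each was followed across the cells of sorted lung. The study compared adult mice carrying Gli1creERT and a floxed Hhip, labelled Gli1creERT/Hhipflo/flox, that had been injected with oil or with tamoxifen. Both groups carried the same alleles, so the groups differ by the injection, and tamoxifen lets the CreERT recombinase delete Hhip, an inhibitor of hedgehog ligands, only in cells that express Gli1. The sort kept live CD45+ cells that an intravenous CD45 antibody, given 3 min before death, had not labelled, that is, leukocytes outside the blood. It was not set to keep fibroblasts or endothelial cells, so barcodes of these types below are no sample of those cells in lung. How they came through the sort was not tested. Each group is 1 library made with 10x Genomics 3′ chemistry. The labels give neither the number, sex or strain of the mice nor the dose and timing of tamoxifen. Replicate libraries were not part of the design, so no difference below has a replicate spread or a test. The intervals given with ratios, levels and shares are 95% intervals that cover counting error only.

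A collagen molecule is built from 3 chains that are hydroxylated and folded in the endoplasmic reticulum, secreted, trimmed at their ends and cross-linked outside the cell. Fibrillar collagens such as types I and III form the cables of the interstitium. Type IV collagen forms the sheet-like network of basement membranes beneath epithelium and endothelium, type VI forms beaded filaments around cells, and the fibril-associated collagens with interrupted triple helices (FACIT) decorate the fibrils. Transmembrane collagens stay anchored in the cell surface, and multiplexins (types XV and XVIII) sit in or next to basement membranes. In lung, fibroblasts and the mural cells of vessels are the known makers of interstitial collagen, and endothelial and epithelial cells contribute type IV chains. CD45+ leukocytes are not usually counted among collagen producers.

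The family holds 11 fibrillar chains, 6 basement membrane chains, 6 beaded filament chains, 9 FACIT chains, 4 transmembrane chains, 2 multiplexins, 3 short-chain network chains, 1 anchoring fibril chain and 2 others. The genes lie on 15 chromosomes, and 8 pairs are neighbours, 3 of them head to head. In GRCm38 with the GENCODE M21 annotation, Col4a1 (chr8, 11198423 to 11312826, minus strand) and Col4a2 (chr8, 11312805 to 11449287, plus strand) overlap at their starts. The genes to which most results below refer are Col1a1 (chr11, 94936224 to 94953042), Col1a2 (chr6, 4504814 to 4541544), Col3a1 (chr1, 45311538 to 45349706), Col13a1 (chr10, 61838236 to 61979108), Col14a1 (chr15, 55307750 to 55520803), Col15a1 (chr4, 47208161 to 47313167) and Col27a1 (chr4, 63214004 to 63334991).

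The upstream sequences of 4 members are shown because their RNA was found in 4 different sets of cells. Col3a1 was found in fibroblasts at large and Col13a1 in alveolar-type fibroblasts. Besides fibroblasts, Col27a1 was found in macrophages and dendritic cells, and Col15a1 in alveolar and C1q macrophages and in barcodes with neutrophil markers. Each is the 150 bases before the start of the gene in RefSeq, build GRCm38.p6, read 5′ to 3′ on the strand of the gene, and capitals mark the motif found. None of the 4 windows overlaps an annotated exon. The Col27a1 window lies inside the gene as GENCODE M21 draws it, because that annotation starts the gene farther upstream.
Col3a1, chr1:45311388-45311537, plus strand: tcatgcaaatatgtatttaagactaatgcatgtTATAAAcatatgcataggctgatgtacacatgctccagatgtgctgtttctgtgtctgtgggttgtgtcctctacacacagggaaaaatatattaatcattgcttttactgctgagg
Col13a1, chr10:61979109-61979258, minus strand: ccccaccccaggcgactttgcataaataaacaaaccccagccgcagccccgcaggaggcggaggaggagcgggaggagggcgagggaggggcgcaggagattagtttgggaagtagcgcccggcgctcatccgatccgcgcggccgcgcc
Col27a1, chr4:63215262-63215411, plus strand: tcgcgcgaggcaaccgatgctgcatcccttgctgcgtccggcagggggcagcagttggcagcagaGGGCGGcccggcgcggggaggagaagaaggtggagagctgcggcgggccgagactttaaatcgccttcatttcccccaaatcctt
Col15a1, chr4:47207862-47208011, plus strand: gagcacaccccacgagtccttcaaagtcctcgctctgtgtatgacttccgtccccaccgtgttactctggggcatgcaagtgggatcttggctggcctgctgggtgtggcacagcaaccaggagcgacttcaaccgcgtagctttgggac

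A search on both strands covered 4 motifs, the CCAAT box (letters CCAAT), the TATA box (letters TATAAA), the GC box (letters GGGCGG) and the PU.1-type motif GAGGAAGT. Among 38 windows of the 35 members with a RefSeq entry, 8 held the CCAAT box, 4 the TATA box, 19 the GC box and 0 the PU.1-type motif. Over all 32851 windows of the same length, the shares were 24.5%, 7.57%, 28.6% and 1.63%. Of the windows shown, that of Col3a1 held the TATA box, that of Col27a1 held the GC box, and those of Col13a1 and Col15a1 held none of the 4 strings. A match is a match of letters only.

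Barcodes with at least 300 genes and less than 10% mitochondrial UMIs were kept. They numbered 6794 in the oil library and 10138 in the tamoxifen library, with a median of 6360.5 and 6431 UMIs and a median mitochondrial share of 3.12% and 3.09%. Cell types were set by 6 gates on marker UMIs: Dcn, Mgp and Inmt for fibroblasts, Cdh5 and Cldn5 for endothelium, C1qa and C1qb for C1q macrophages, Krt79 and Plet1 for alveolar macrophages, Xcr1 and Clec9a for type 1 conventional dendritic cells (cDC1), and Cd3d, Cd3e and Cd3g for T cells. A barcode could meet several gates, which 780 (11.5%) oil and 1474 (14.5%) tamoxifen barcodes did. Values are therefore given both for the gate as defined and for barcodes that met that gate alone. Of the barcode sequences, 41 occurred in both libraries, and the 18 kept in both held 9 and 19 collagen UMIs. No collagen was used to set a gate.

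The gates did not hold pure cells. In the fibroblast gate all 5 of the fibroblast genes outside the rule (Pdgfra, Lum, Fbln1, Serping1 and Gsn) were seen, and 65.7% and 67.9% of barcodes had at least 3 UMIs of them. Yet 221 (49.9%) of 443 oil and 232 (58.6%) of 396 tamoxifen barcodes also had at least 3 UMIs of the leukocyte genes Ptprc, Coro1a and Laptm5. Those barcodes carried 1644 of 5992 and 2151 of 5137 collagen UMIs, and C1q macrophage markers stood at 3956 and 3453 UMIs per 1000000 UMIs of the same barcodes (CPM) in the gate. Among barcodes of the fibroblast gate alone, the share with leukocyte UMIs was 18.2% and 14.1%. In the endothelial gate 89.7% and 86.0% had at least 3 UMIs of other endothelial genes, and 14.6% and 17.9% had leukocyte UMIs. Other marker lists of the fibroblast gate moved more: epithelial markers (7 of 7 seen in each library) stood at 404 and 2068 CPM, alveolar macrophage markers (5 of 5) at 262 and 1309 CPM, and T cell markers (5 of 5) at 134 and 268 CPM. In barcodes of the fibroblast gate alone epithelial markers stood at 560 and 5766 CPM and alveolar macrophage markers at 98.3 and 176 CPM. The part of epithelial or leukocyte RNA or of joined cells in the results below was not tested beyond the values for barcodes of 1 gate.

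Collagen RNA was a small part of these libraries, 10490 UMIs (197 CPM) in the oil and 9211 UMIs (115 CPM) in the tamoxifen library, and a few cells held most of it. The fibroblast gate, 443 and 396 barcodes, held 57.1% and 55.8% of it. Within that gate 28 oil and 25 tamoxifen barcodes held 50% of the collagen UMIs. The 3 richest barcodes held 847, 280 and 113 UMIs with oil and 428, 175 and 160 with tamoxifen, which is 20.7% and 14.9% of the gate. In both libraries a handful of cells thus carried weight in the collagen sum of the fibroblast gate. In barcodes of the C1q macrophage gate alone, the 3 richest held 3.35% and 3.65%. Col14a1 had the most UMIs (2002 and 1680), followed by Col4a1 (1329 and 1173), Col1a2 (1193 and 1050), Col3a1 (1112 and 914), Col27a1 (948 and 552), Col4a2 (732 and 657) and Col1a1 (656 and 565). Of the 44 members, 22 had at least 100 UMIs over both libraries, 28 at least 20, and 14 had 1 to 19. Col22a1 and Col26a1 had 0 UMIs in kept barcodes.

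**Figure D1:**
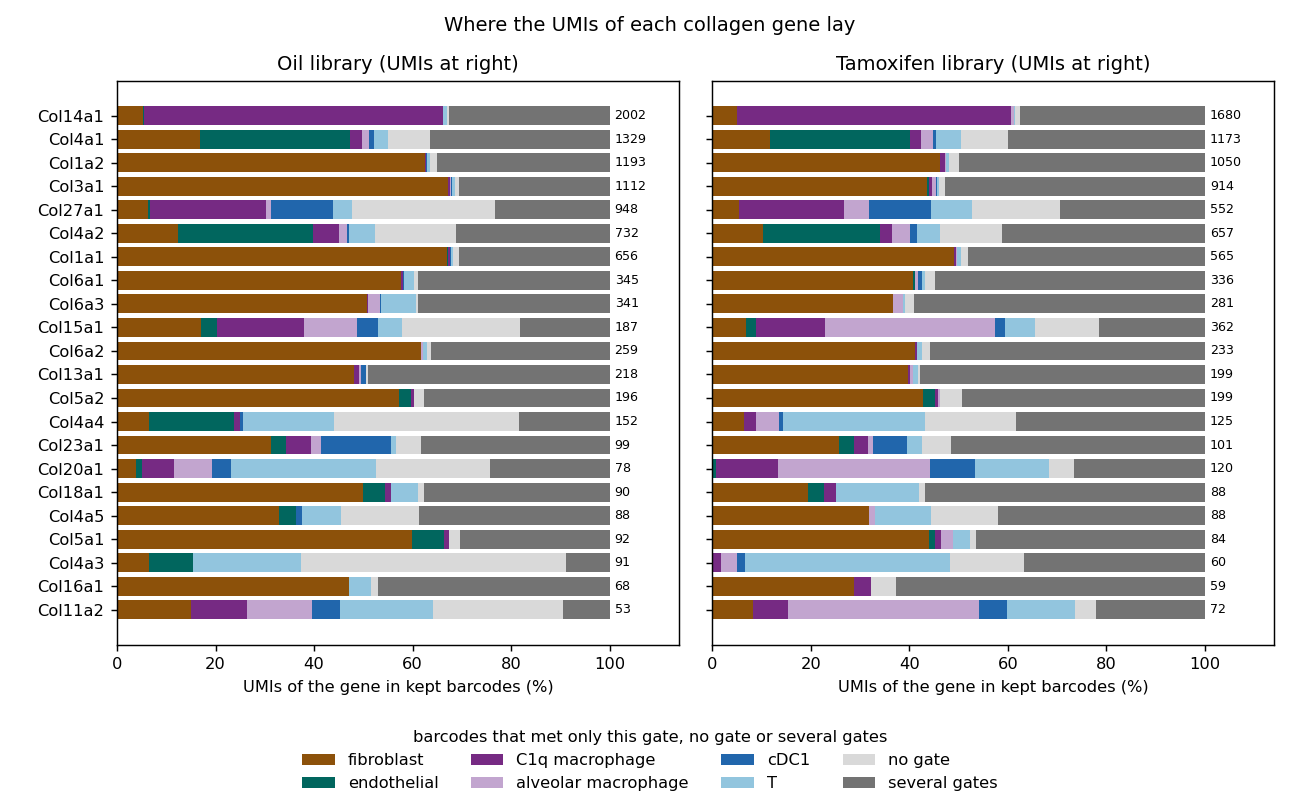
Share of each member's UMIs by place, for the 22 members with at least 100 UMIs in kept barcodes of both libraries, oil and tamoxifen in separate panels, with each barcode counted once by the gate or gates it met and the UMIs at the right. Col1a1, Col1a2 and Col3a1 lie in the fibroblast gate or in barcodes of several gates, while most Col14a1 UMIs lie in the C1q macrophage gate.

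The cell types differed far more in collagen than the libraries did. Counted in barcodes of 1 gate, the collagen sum was 3567 CPM with oil and 3855 CPM with tamoxifen in fibroblasts, and 1022 and 1035 CPM in endothelium. C1q macrophages followed with 206 and 153 CPM. The sum was 29.8 and 20.3 CPM in alveolar macrophages, 36.8 and 28.2 CPM in cDC1, 20.2 and 14.3 CPM in T cells, and 68.5 and 57.9 CPM in barcodes that met no gate. The order fibroblast, endothelial, C1q macrophage was the same in both libraries. Barcodes of several gates held 32.3% and 43.2% of all collagen UMIs, at 355 and 221 CPM.

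Set against oil, the tamoxifen library had less collagen among leukocytes and a fibroblast level whose direction depended on the barcodes counted. For the gates as defined the log2 ratio of tamoxifen over oil was -0.094 (-0.15 to -0.04) in fibroblasts and -0.15 (-0.25 to -0.04) in endothelium. The immune gates as defined had -0.53 in C1q macrophages, -0.60 in alveolar macrophages, -0.46 in cDC1 and -0.33 in T cells. Over the 4 immune gates summed the ratio was -0.66 (-0.71 to -0.60), below that of each gate. The summed barcodes differ in their mix of cell types between libraries, and the part of this mix was not tested. For barcodes of the fibroblast gate alone the ratio was 0.11 (0.03 to 0.19), and for those of the endothelial gate alone it was 0.019. The immune ratios of single-gate barcodes were -0.43 in C1q macrophages, -0.55 in alveolar macrophages, -0.39 in cDC1 and -0.49 in T cells. Over all kept barcodes the ratio was -0.77 (-0.82 to -0.73), in a tamoxifen library with 2507 alveolar macrophage barcodes against 476.

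In the fibroblast gate, fibrillar chains made up 55.3% of collagen UMIs with oil and 53.9% with tamoxifen, basement membrane chains 15.8% and 15.2%, beaded filament chains 14.8% and 15.7%, FACIT chains 7.28% and 7.69%, and transmembrane chains 4.72% and 5.22%. The make-up by role was therefore nearly the same in both libraries. Each UMI counts 1 molecule from its 3′ end, so gene length does not enter the levels. Other differences between genes in how well their RNA is captured were not tested, so values of different genes compare UMIs only.

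Type I collagen, the main fibril former, is a trimer of chains from Col1a1 and Col1a2. Col1a2 had the more UMIs of the pair, 1154 (301 CPM) with oil and 999 (284 CPM) with tamoxifen in the fibroblast gate. Its log2 ratio was -0.08 (-0.20 to 0.04). Col1a1 had 636 UMIs (166 CPM) and 545 (155 CPM), a ratio of -0.095 (-0.26 to 0.07). Both libraries held 0.55 Col1a1 UMIs per Col1a2 UMI. Col3a1, the homotrimer that co-assembles with type I in extensible tissue, had 1084 UMIs (282 CPM) and 875 (249 CPM), a ratio of -0.18 (-0.31 to -0.05). The interval of Col3a1 lies below 0, but a single oil barcode held 262 of its UMIs, and the ratio without barcodes carrying mural or mesothelial markers was 0.47. The 3 richest barcodes held 34.7% and 26.2% of Col3a1, 29.7% and 20.4% of Col1a2 and 32.4% and 22.2% of Col1a1.

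Type V chains nucleate and limit the width of type I fibrils. Col5a2 had 184 and 180 UMIs (48.0 and 51.2 CPM, log2 ratio 0.096) and Col5a1 had 82 and 71 (21.4 and 20.2 CPM, -0.08). Both intervals included 0, and both chains lay well under the type I chains. Col5a3 had 17 and 14 UMIs. Col11a1 (13 and 3 UMIs) and Col2a1 (6 and 5), chains typical of cartilage, each came from at most 2 barcodes per library, and the cartilage FACIT chains Col9a2 (7 and 6) and Col9a3 (8 and 5) from at most 3.

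The network-forming chains Col4a1 and Col4a2 were seen in fibroblast and endothelial barcodes. In the fibroblast gate Col4a1 had 567 UMIs (148 CPM) with oil and 416 (118 CPM) with tamoxifen, a log2 ratio of -0.32 (-0.51 to -0.13). Col4a2 had 253 and 226 UMIs (65.9 and 64.3 CPM), a ratio of -0.035. The Col4a1 ratio of that gate alone was 0.088 (-0.23 to 0.40), so the lower value was not seen there. In the gate as defined, barcodes with at least 2 UMIs of mural markers held 225 of the oil and 79 of the tamoxifen Col4a1 UMIs. The part of these barcodes, or of those that met other gates, in the lower value was not tested. The minor chain Col4a5 had 63 and 64 UMIs.

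Type VI collagen links cells to the matrix around them. Col6a1 had 333 and 319 UMIs (86.8 and 90.8 CPM, log2 ratio 0.066), Col6a2 had 252 and 222 (65.7 and 63.2 CPM, -0.055), and Col6a3 had 301 and 262 (78.4 and 74.6 CPM, -0.072). All 3 intervals included 0. There were 1.32 Col6a1 UMIs per Col6a2 UMI with oil and 1.44 with tamoxifen, so these chains of 1 molecule stood at similar levels in both libraries.

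Among the fibril-associated chains, Col12a1, which bridges fibrils in tissue under load, was the only one of the 22 members with at least 20 UMIs in the fibroblast gate past 2-fold. It had 11 UMIs in 10 oil barcodes and 25 in 21 tamoxifen barcodes, a log2 ratio of 1.31 (0.24 to 2.48). Over all 11456 genes with that many UMIs in the gate, 6.13% were past 2-fold in either direction (3.71% higher and 2.42% lower), so 1 of 22 is near the background. The Col12a1 UMIs of the gate alone were 6 and 9, too few for a ratio. Col16a1 had 64 and 54 UMIs (-0.12). Col14a1 had 334 and 295 UMIs (-0.051), of which 203 and 150 lay in barcodes that also met the C1q macrophage gate.

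The transmembrane Col13a1 had 208 and 192 UMIs (54.2 and 54.7 CPM), a log2 ratio of 0.012, and Col23a1 had 68 and 69, a ratio of 0.15. The multiplexins Col15a1 (38 and 41 UMIs) and Col18a1 (76 and 64), the parent of endostatin, had ratios of 0.24 and -0.12, both with intervals that included 0. Col27a1, a fibrillar chain with an interrupted helix, had 127 and 71 UMIs (33.1 and 20.2 CPM), a ratio of -0.71 (-1.15 to -0.28). Counted in the gate alone it had 60 and 30 UMIs and a ratio of -0.22 (-0.90 to 0.44). Across the 22 members the ratio was above 0 in 9 and below 0 in 13, with a median of -0.05 beside 0.04 for all genes. Within the gate alone, 14 of 18 members were above 0, with a median of 0.19 beside -0.05, and 0 of 18 were past 2-fold, where 9.41% of all genes were.

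**Figure D2:**
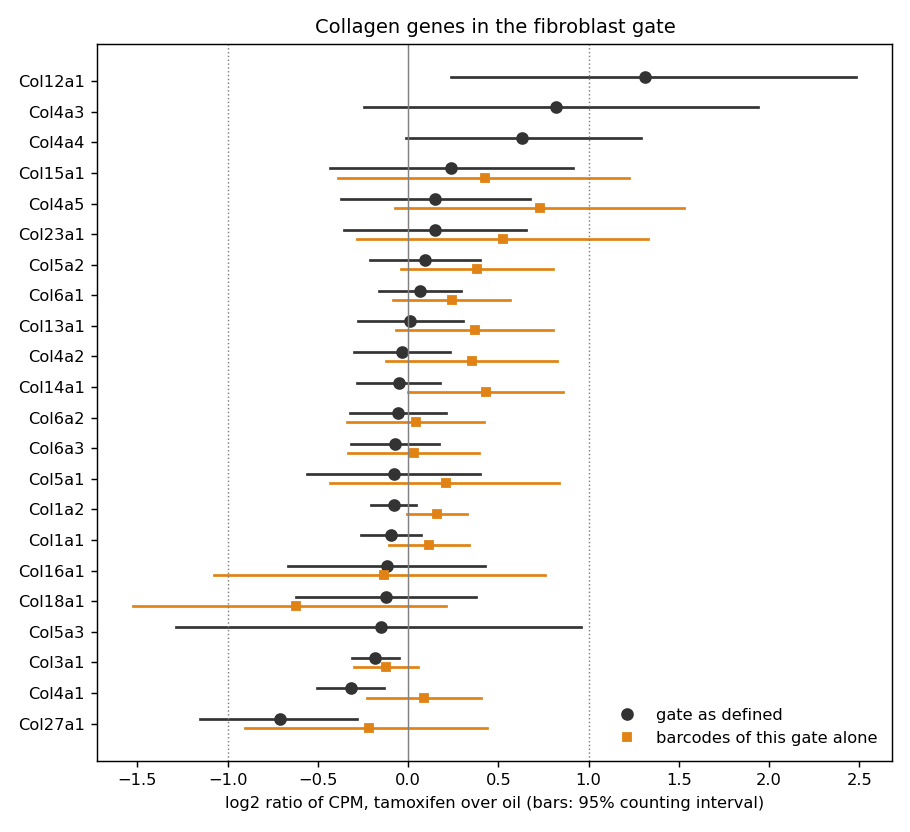
Log2 ratio of tamoxifen over oil for each member with at least 20 UMIs in the fibroblast gate, for the gate as defined and for barcodes of the gate alone, with 95% counting intervals and dashed lines at 2-fold. Col12a1 is the only member past a line in the gate as defined, and most points of the gate alone lie to the right of those of the whole gate.

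Barcodes with markers of mural cells, the pericytes and smooth muscle of vessels, held a larger share of the fibroblast sum with oil than with tamoxifen. Within the gate, 30 oil and 24 tamoxifen barcodes had at least 2 UMIs of mural markers. They held 2330 (38.9%) of the oil and 801 (15.6%) of the tamoxifen collagen UMIs, and the oil barcode with 847 collagen UMIs was among them. Mesothelial markers passed the same minimum in 2 oil barcodes (31 collagen UMIs) and in 0 tamoxifen barcodes. Without barcodes carrying mural or mesothelial markers, the collagen ratio of the gate was 0.32. Whether these barcodes are mural cells, fibroblasts or joined cells was not tested.

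Barcodes near the gate's threshold carried little collagen. The 106 oil and 90 tamoxifen barcodes with a Dcn, Mgp and Inmt sum of at least 50 had a median of 35 and 33.5 collagen UMIs and held 81.5% of the gate's oil collagen. The 122 and 95 barcodes just inside, with a sum of 3 or 4, had a median of 1 and 0 collagen UMIs. The 144 and 147 barcodes just outside, with a sum of 2, had a median of 1 and 0, and 195 and 185 UMIs in all.

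Within the fibroblast gate alone, members divided by the kind of fibroblast. Barcodes were called adventitial-type by Pi16, Mfap5, Cd248, Ccl11 and Dpp4 and alveolar-type by Npnt, Ces1d, Tcf21, Fgfr4, Limch1 and Slc7a10. A call needed at least 2 UMIs of a list and more than of the other. The adventitial-type set had 15 oil and 11 tamoxifen barcodes, the alveolar-type set 118 and 75, and 59 and 42 met neither. Of these, 5 and 3 adventitial-type and 32 and 18 alveolar-type barcodes lay within 1 UMI of the minimum. Adventitial fibroblasts line vessels and airways, and alveolar fibroblasts support the gas-exchange wall. The collagen sum was 8735 and 11525 CPM in adventitial-type and 3690 and 4135 CPM in alveolar-type barcodes. For the gate as defined the oil order was the other way, 2048 CPM in 50 adventitial-type and 2510 CPM in 208 alveolar-type barcodes, and with tamoxifen it was 2714 CPM in 33 against 2311 CPM in 191. Of those adventitial-type barcodes, 38 and 18 also had leukocyte UMIs. Within the gate alone, 7 of 15 oil and 1 of 11 tamoxifen adventitial-type barcodes had at least 3 of them. The alveolar-type counts there were 9 of 118 and 6 of 75. At least 2 mural UMIs were found in 3 and 1 adventitial-type and in 9 and 7 alveolar-type barcodes.

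Col14a1, Col15a1 and the interstitial chains stood higher in adventitial-type barcodes, by an amount that depended on the barcodes counted. Within the gate alone, Col14a1 stood at 403 CPM (62 UMIs) against 83.9 CPM (45 UMIs) with oil, a log2 ratio of adventitial over alveolar of 2.26 (1.69 to 2.85), and at 61 against 22 UMIs with tamoxifen, a ratio of 3.99. The ratio of Col15a1 was 2.66 and 3.32. Those of Col1a2 (1.88 and 2.24), Col1a1 (1.85 and 2.07) and Col3a1 (1.82 and 1.65) were similar to each other. A few barcodes carried the oil values: Col1a2 had 377 UMIs in 6 of the 15 adventitial-type barcodes (40.0%), against 54.2% of alveolar-type barcodes with a UMI, and Col1a1 was found in 40.0% against 44.1%. For Col14a1 the oil shares were 46.7% and 12.7%. For the gate as defined the ratios were smaller, 0.50 and 1.98 for Col14a1, 1.69 and 3.07 for Col15a1, 0.30 and 0.88 for Col1a2, 0.38 and 0.85 for Col1a1, and 0.38 and 0.73 for Col3a1. All were above 0 in both libraries.

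Col13a1 lay on the other side. With oil it had 0 UMIs in the 15 adventitial-type and 105 in 49 of the 118 alveolar-type barcodes (196 CPM), at least 10.0-fold higher when the floor of 3 UMIs in the adventitial-type set (19.5 CPM) is used. With tamoxifen the UMIs were 2 against 76, a log2 ratio of adventitial over alveolar of -2.73 (-5.80 to -0.83). Col23a1, the other transmembrane chain, had 0 against 30 UMIs with oil, at least 2.87-fold higher in the alveolar-type set, but 3 against 23 with tamoxifen, where the interval of -2.80 to 1.30 included 0. Col6a3 was lower in adventitial-type barcodes with oil (-1.60), while with tamoxifen its interval around -0.50 included 0. For the gate as defined, Col13a1 had 1 against 206 UMIs with oil and 2 against 185 with tamoxifen (-4.27), and Col6a3 had ratios of -3.03 and -1.51. Of the fibroblast gate alone, 40 oil barcodes had Col13a1 only, 13 had Col14a1 only and 9 had both, and the tamoxifen barcodes numbered 18, 10 and 10.

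**Figure D3:**
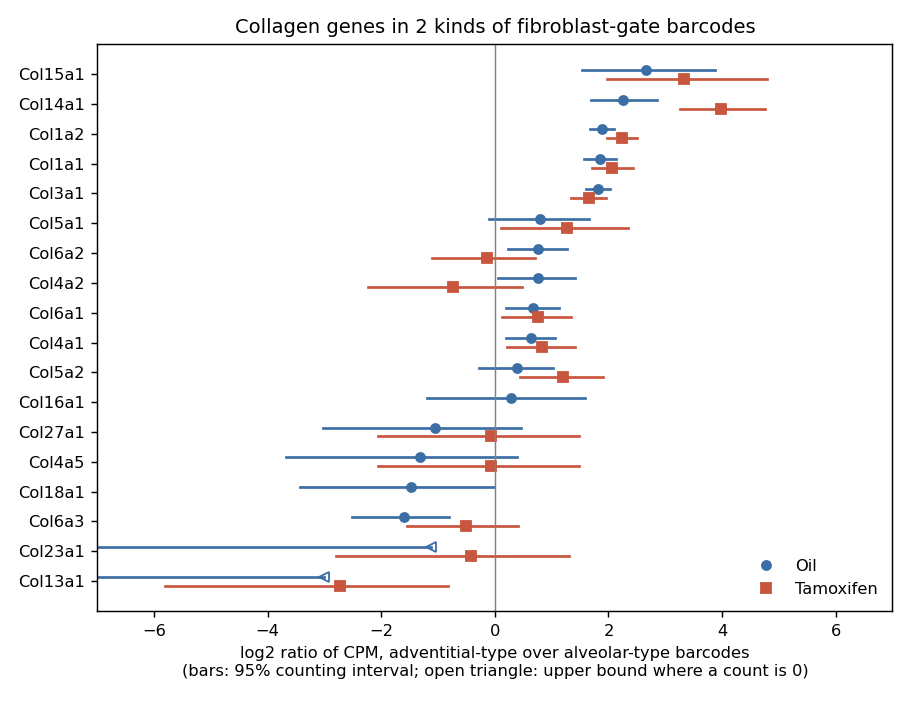
Log2 ratio of adventitial-type over alveolar-type barcodes for members in the fibroblast gate alone, oil and tamoxifen in separate colours, with 95% counting intervals and open triangles where the count of the adventitial-type set is 0. Col14a1 and Col15a1 lie to the right in both libraries and Col13a1 to the left, and the sets behind the points are 15 and 11 adventitial-type barcodes.

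Endothelial collagen was nearly all type IV. Basement membrane chains made up 93.9% of collagen UMIs with oil and 93.7% with tamoxifen in barcodes of the endothelial gate alone. Col4a1 had 406 UMIs (605 CPM) with oil and 333 (659 CPM) with tamoxifen, a log2 ratio of 0.12 (-0.09 to 0.34). Col4a2 had 201 (299 CPM) and 157 (311 CPM), a ratio of 0.05. The chains form a heterotrimer, and there were 2.02 Col4a1 UMIs per Col4a2 UMI with oil and 2.12 with tamoxifen. Both were found together in 70 oil and 53 tamoxifen barcodes, Col4a1 alone in 42 and 36, and Col4a2 alone in 15 and 15. General capillary-type barcodes had 656 and 815 CPM of Col4a1 (110 and 90 barcodes) and aerocyte-type barcodes, the capillary cells of gas exchange, 356 and 408 CPM (19 and 26 barcodes). Col4a4 had 26 UMIs with oil, all in 3 barcodes, and 0 with tamoxifen.

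For the endothelial gate as defined, 6 of 16 members were past 2-fold, where 6.54% of all genes were (3.27% higher and 3.28% lower). Lower with tamoxifen were Col3a1 (43 and 9 UMIs, log2 ratio -1.99), Col6a3 (41 and 13, -1.39), Col13a1 (32 and 11, -1.27) and Col1a1 (43 and 16, -1.16), all fibroblast genes in these data. Higher were Col14a1 (11 and 40, 2.13) and Col12a1 (8 and 14, 1.08). Within the endothelial gate alone none of these 6 reached 20 UMIs over both libraries. There, 1 of 3 members was past 2-fold, Col4a4, where 7.27% of all genes were. The gate shared 49 oil and 33 tamoxifen barcodes with the fibroblast gate. Fibroblast markers (4 of 5 seen in each library) stood in it at 764 and 543 CPM, and C1q macrophage markers (5 of 5) at 512 and 1018 CPM. Their part in these 6 ratios was not tested.

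Col14a1 was the main collagen of a leukocyte. Type XIV collagen is a FACIT chain that binds decorin and fibrils and is known as a product of fibroblasts. Counted in the C1q macrophage gate alone, Col14a1 had 1214 UMIs with oil and 935 with tamoxifen, which is 60.6% and 55.7% of its UMIs in all kept barcodes. Of 839 oil barcodes 372 (44.3%) had a UMI, and of 818 tamoxifen barcodes 308 (37.7%). The UMIs were spread evenly, with a median of 2 and a maximum of 19 and 16 in a positive barcode, and the 3 richest held 4.20% and 4.39%. Of the positive barcodes, 98.7% and 97.1% had 0 UMIs of Dcn, Col1a1, Col1a2 and Col3a1.

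The level of Col14a1 in C1q macrophages was of the same order as in fibroblasts. It stood at 158 CPM with oil and 119 CPM with tamoxifen in C1q macrophages, and at 110 and 148 CPM in fibroblasts, each in barcodes of 1 gate. The order of the pair therefore differed between libraries. Other leukocytes had almost none. With every barcode thinned to 1500 UMIs, Col14a1 was found in 20.2% (17.5 to 23.1) and 17.0% (14.5 to 19.8) of C1q macrophage barcodes, against 0.0444% (1 of 2250) of oil T cells. It was found in 0 of 3721 tamoxifen T cells, which allows a share of up to 0.0806%, in 0 of 279 oil and 2 of 1629 (0.123%) tamoxifen alveolar macrophages, and in 0 of 323 and 0 of 335 cDC1. The share in C1q macrophages was above that in each of these cell types at the same depth, and the part of free RNA in it was not tested. Positive C1q macrophage barcodes were no deeper than the rest, with a median of 7573 total UMIs against 8911 with oil and 7549 against 9975 with tamoxifen.

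The log2 ratio of tamoxifen over oil for Col14a1 was -0.41 (-0.54 to -0.29) in barcodes of the C1q macrophage gate alone and -0.47 (-0.57 to -0.37) in the gate as defined, which had 1840 and 1503 UMIs. In fibroblasts of 1 gate the ratio was 0.43, with an interval that starts at 0.00. In the C1q macrophages it was -0.10 (-0.26 to 0.07) among female and -0.94 (-1.21 to -0.68) among male barcodes. The size of the difference was thus not the same in the sexes, and sex was called from Xist and 4 Y-linked genes. Over the whole C1q macrophage gate 4 of 14 members were past 2-fold, all lower with tamoxifen, where 5.37% of all genes were (3.37% higher and 2% lower). These were Col3a1 (100 and 47 UMIs, -1.27), Col27a1, Col13a1 (33 and 18) and Col1a1 (45 and 23). Within the gate alone 2 of 6 were, Col4a2 (39 and 15, -1.42) and Col20a1 (5 and 15, 1.55), where 4.94% of all genes were. Col3a1, Col13a1 and Col1a1 are fibroblast genes in these data. The C1q macrophage gate shared 107 oil and 74 tamoxifen barcodes with the fibroblast gate, and the part of these was not tested.

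Col27a1 was the member with the most UMIs in dendritic cells and the second in C1q macrophages, and it was lower with tamoxifen in each leukocyte gate. It belongs with the fibrillar collagens of cartilage. In C1q macrophages of 1 gate it had 224 UMIs (29.2 CPM) with oil and 118 (14.99 CPM) with tamoxifen, a log2 ratio of -0.96 (-1.29 to -0.63). In cDC1 it had 119 (25.02 CPM) and 69 (15.3 CPM), a ratio of -0.71 (-1.16 to -0.27). The intervals of both lie below 0. Fibroblasts had it too, and alveolar-type barcodes of the fibroblast gate alone stood above both leukocyte types. They had 54.1 CPM (29 UMIs) with oil and 69.3 CPM (24 UMIs) with tamoxifen. Adventitial-type barcodes had 4 UMIs in each library (26.0 and 66.0 CPM). In T cells (38 and 46 UMIs, 2.55 and 2.04 CPM) and alveolar macrophages (9 and 28 UMIs, 2.82 and 1.67 CPM) the ratios of -0.32 and -0.76 had intervals that included 0. After thinning to 1500 UMIs, 4.52% and 3.26% of C1q macrophages, 3.41% and 2.39% of cDC1, and 0.267% and 0.215% of T cells had a UMI.

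Barcodes that met no gate had 274 Col27a1 UMIs (24.0 CPM) with oil and 99 (10.9 CPM) with tamoxifen, a log2 ratio of -1.14. In those with markers of type 2 conventional dendritic cells, 393 and 162 barcodes, there were 185 and 21 UMIs. In those with markers of Ccr7-expressing dendritic cells, 350 and 288 barcodes, there were 164 and 69. Both marker lists were chosen after the values were seen, and a barcode could meet both. The number of these barcodes and the Col27a1 UMIs they held were both lower with tamoxifen. Over all kept barcodes Col27a1 was found in 619 oil and 392 tamoxifen barcodes, with 17.8 and 6.91 CPM and a ratio of -1.37 (-1.52 to -1.22). It was 1 of 3 of the 28 members past 2-fold there, the others being Col4a3 and Col4a6, and 8.85% of all genes were. The ratio was -1.32 among female and -1.34 among male barcodes. The pooled libraries differ in their mix of cell types, with 476 oil and 2507 tamoxifen barcodes in the alveolar macrophage gate and 3019 and 5127 in the T gate. The part of this mix in the pooled ratios was not tested.

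Col15a1 had the most UMIs of any member in alveolar macrophages, the resident phagocytes of the air space, level with Col4a1 in the oil library. In that gate alone it had 20 UMIs in 19 of 287 oil barcodes and 125 in 113 of 1674 tamoxifen barcodes. The levels of 6.27 and 7.45 CPM gave a log2 ratio of 0.25 (-0.44 to 1.01), so the larger count came with more barcodes. None of the positive barcodes had a UMI of Dcn, Col1a1, Col1a2 or Col3a1. Thinned to 1500 UMIs, 0.717% and 1.78% of alveolar macrophages had it, against 0.0444% and 0.107% of T cells. C1q macrophages had 33 and 51 UMIs (4.30 and 6.48 CPM), and fibroblasts, with 32 and 25, had the higher level of 32.8 and 44.0 CPM. Col15a1 was not confined to macrophages among leukocytes. Barcodes of no gate with neutrophil markers had 15 UMIs in 10 of 48 oil and 16 in 10 of 130 tamoxifen barcodes. Their median depth was 2538.5 and 2845.5 UMIs. In all kept barcodes Col15a1 had 187 and 362 UMIs, and alveolar macrophages of 1 gate held 10.7% and 34.5% of them.

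**Figure D4:**
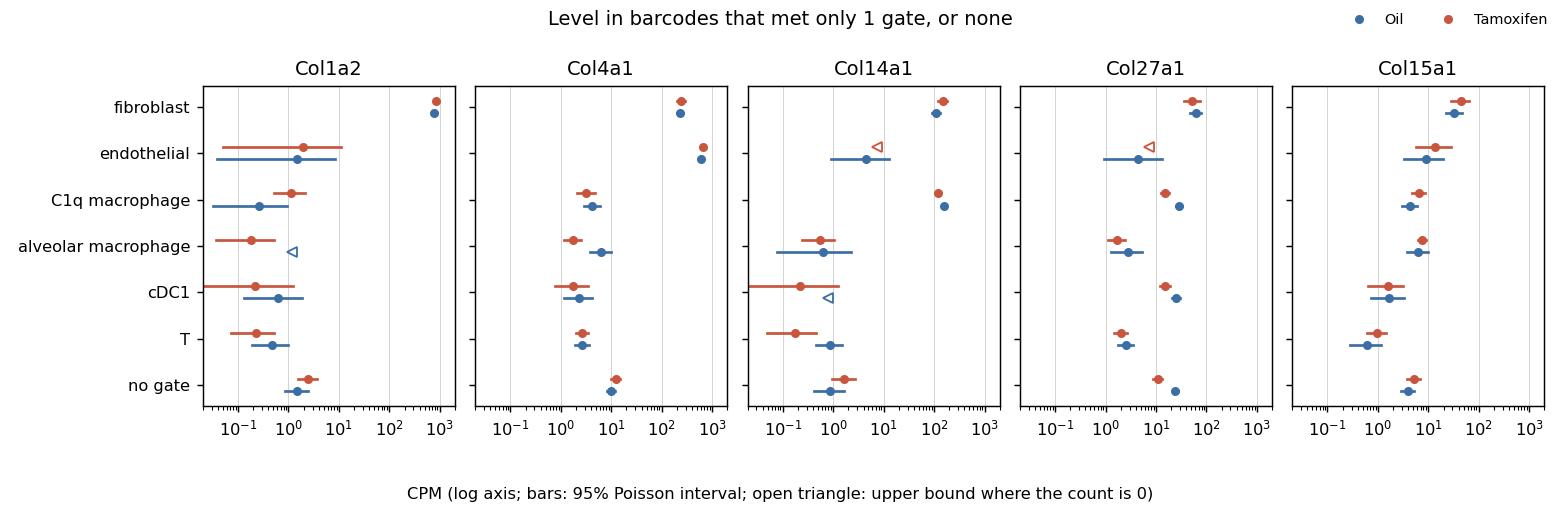
Level of Col1a2, Col4a1, Col14a1, Col27a1 and Col15a1 in CPM on a log axis, in barcodes that met 1 gate or none, with 95% Poisson intervals and open triangles for the upper bound where the count is 0. Col1a2 is high in fibroblasts only, Col4a1 in endothelium and fibroblasts, and Col14a1 in fibroblasts and C1q macrophages.

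In the alveolar macrophage gate as defined 5 of 16 members were past 2-fold, where 9.86% of all genes were (4.01% higher and 5.85% lower). All 5, Col4a1, Col6a3, Col13a1, Col23a1 and Col27a1, were lower with tamoxifen. Counted in that gate alone, Col4a1 had 20 and 29 UMIs (6.27 and 1.73 CPM, log2 ratio -1.86) and Col4a2 had 12 and 24 (-1.39), in a gate of 287 and 1674 barcodes. Col27a1 was not past 2-fold in that gate alone. Col6a3, Col13a1 and Col23a1 had fewer than 20 UMIs over both libraries there, too few for a ratio. All beaded filament chains together had 9 and 11 UMIs there, a log2 ratio of -2.10 (-3.51 to -0.66), and all transmembrane chains 3 and 2. The alveolar macrophage gate as defined shared 21 of 476 oil and 62 of 2507 tamoxifen barcodes with the fibroblast gate. The part of these shared barcodes was not tested. In cDC1 0 of 12 and in T cells 0 of 23 members were past 2-fold, where 5.79% and 7.2% of all genes were. The median ratio of the 28 members over all kept barcodes was -0.72, beside 0.07 for all genes, in libraries whose mix of cell types differed.

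**Figure D5:**
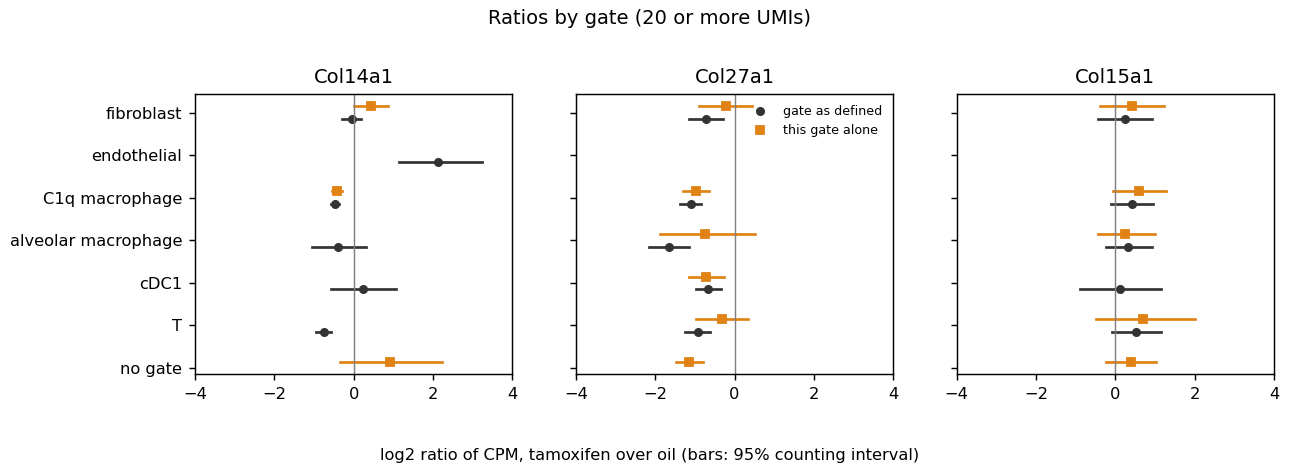
Log2 ratio of tamoxifen over oil for Col14a1, Col27a1 and Col15a1 by gate, for gates as defined and for barcodes of 1 gate, with 95% counting intervals. Every Col27a1 point of a leukocyte gate lies below 0, and the Col14a1 point of fibroblasts of 1 gate lies above 0 while that of C1q macrophages lies below.

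The remaining members came from few barcodes. The chains Col4a3 and Col4a4, chains of the epithelial basement membrane of the alveolus, had 97.8% and 85.0% (Col4a3) and 85.5% and 80.0% (Col4a4) of their UMIs in barcodes with at least 3 UMIs of epithelial markers. Such barcodes numbered 1082 of 6794 oil and 1433 of 10138 tamoxifen barcodes. They also held 28.8% and 32.8% of Col4a1 and 11.9% and 23.0% of Col1a2 UMIs. Whether they are epithelial cells was not tested. Over all kept barcodes 24 and 17 had a Col4a3 UMI and 40 and 38 a Col4a4 UMI. Col8a1, a short-chain collagen of vessel walls, had 0 UMIs with oil and 20 with tamoxifen in barcodes of no gate, the latter in 4 barcodes. Col20a1 (78 and 120 UMIs) and Col11a2 (53 and 72) were spread over macrophages and T cells with 1 or a few UMIs per barcode.

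The genes that build and hold collagen were read in the fibroblast gate as lists. Past 2-fold were 0 of 13 measured genes of chain hydroxylation and glycosylation, 0 of 12 of folding and secretion, 0 of 4 of propeptide cleavage, 0 of 6 of cross-linking and 0 of 12 of elastic fibres. The medians of their log2 ratios were -0.26, -0.03, 0.08, -0.15 and 0.04. Of 11 fibril-binding proteoglycans and glycoproteins, 1 was higher, lumican (Lum), which spaces fibrils, with 46 and 112 UMIs, a ratio of 1.41 (0.90 to 1.94). Within the gate alone Lum had 38 and 108 UMIs, a ratio of 2.29 (1.74 to 2.86). Of 9 collagen receptors, 1 was higher, the inhibitory leukocyte receptor Lair1, with 42 and 80 UMIs and a ratio of 1.06 (0.50 to 1.63), in a gate where leukocyte genes were common. It had 1 and 7 UMIs in barcodes of the gate alone. There, the collagen hydroxylation partner P3h4 (14 and 19 UMIs, 1.22), podocan (Podn, 24 and 28, 1.00) and fibulin-2 (Fbln2, 16 and 37, 1.99) were past 2-fold and higher. These counts read against 6.13% of all genes in the gate as defined and 9.41% in barcodes of the gate alone.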

How the data were processed

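The deposited files hold gene by barcode UMI counts of 2 libraries, 1 per group, made by the submitters with Cell Ranger 5.0.1 on GRCm38 (mm10), per the submitters' processing notes. The oil file has 10342 barcodes and 57704412 UMIs, and the tamoxifen file 12980 and 83730550. The files are Cell Ranger output as deposited, and no cell annotation was used. Barcodes with at least 300 genes and under 10% mt- UMIs were kept, and gates needed summed UMIs of at least 3 (Dcn, Mgp, Inmt), 2 (Cdh5, Cldn5), 5 (C1qa, C1qb), 2 (Krt79, Plet1), 2 (Xcr1, Clec9a) and 1 (Cd3d, Cd3e, Cd3g).

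Levels are CPM, UMIs per 1000000 of all UMIs of the same barcodes. A ratio was formed where a gene had at least 20 UMIs over both libraries, with an exact conditional interval for a ratio of Poisson counts, and shares have Clopper-Pearson intervals. UMIs of 1 cell are not independent, so intervals cover counting error only. Past 2-fold describes size and is no test. The interval code was tested on simulated data. Barcodes were thinned to 1500 UMIs with a fixed seed, leaving out shallower ones. Every member was counted, and was named with a ratio at 20 UMIs in a gate. Pathway genes were named at 20 UMIs, 2-fold and an interval without 0. Members and lists were chosen with earlier results of these data known.

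Doublets were not removed. Scrublet, as run in scanpy 1.11.5, called 4 oil barcodes (0.0589%), too few for its threshold to have worked, and 416 (4.10%) tamoxifen barcodes, so the 369 and 822 highest scores were left out as an alternative. Other alternatives were stricter gates, 1000 genes, 25% mitochondrial UMIs, thinning, a median-of-ratios scaling, and leaving out marker-positive barcodes. Python 3.11.15, numpy 2.4.6, scipy 1.17.1 and pandas 2.3.3 were used. Sequences are from RefSeq and positions from GENCODE M21. Col1a1 and Col14a1 have no promoter entry in the table used.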

Additional observations from a re-analysis of the deposited data

Results flagged for a closer look

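Both libraries hold male and female barcodes, and 10 values moved in opposite directions in the sexes or in a pair of cell types. The differences were not tested, because each sex of each group comes from 1 library. In the fibroblast gate the log2 ratio of tamoxifen over oil for all members summed was 0.18 among female (183 and 169 barcodes) and -0.33 among male barcodes (88 and 82). Col1a2 had 0.29 and -0.21, Col3a1 had 0.32 and -0.40, and the type VI chains Col6a1 and Col6a2 had 0.55 and -0.61, and 0.47 and -0.65. Within the fibroblast gate alone the ratio was above 0 in both sexes for the sum (0.46 and 0.26), Col1a2 (0.59 and 0.49) and Col3a1 (0.40 and 0.19). Col6a1 (1.02 and -0.62) and Col6a2 (0.85 and -0.38) kept opposite directions there, and the male intervals of both included 0. In the C1q macrophage gate Col1a2 had -0.60 among female barcodes (58 and 49 UMIs) and 4.79 (2.18 to 10.1) among male ones, where the counts were 1 and 27 UMIs. Col3a1 had -1.68 (65 and 26 UMIs) and 3.35 (1.31 to 6.49, 2 and 20 UMIs). In the alveolar macrophage gate all members summed had -1.11 (300 and 741 UMIs) and 0.63 (42 and 130 UMIs). In the T gate Col3a1 had 0.61 and -0.52. Col14a1 had a ratio of 0.43 in fibroblasts and -0.41 in C1q macrophages, each in barcodes of 1 gate.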

How the results depend on the processing

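No paired analysis was possible because each group has 1 library. For the same reason no replicate could be left out. Depth limits 16 of the 44 members: 2 had 0 UMIs and 14 had 1 to 19. The collagen ratio of the fibroblast gate (-0.094) turned positive in barcodes of 1 gate (0.11), with Dcn alone as the marker (0.023), without the 3 richest barcodes (0.012), without mural or mesothelial marker barcodes (0.32) and in female barcodes (0.18). It was -0.031 without leukocyte marker barcodes and -0.33 in male ones. The endothelial ratio (-0.15) turned positive in barcodes of 1 gate (0.019), after thinning (0.055) and without leukocyte marker barcodes (0.034), and was -0.0020 without high doublet scores, -0.36 with Cdh5 alone and -0.67 in male barcodes. The ratio over the immune gates (-0.66) was -0.87 in barcodes of 1 gate, -0.74 with median-of-ratios scaling and -0.72 after thinning. It was -0.56 in female and -0.79 in male barcodes. The -0.87 lies below the ratio of each immune gate alone, which ran from -0.55 to -0.39. Median-of-ratios scaling moved the median of all genes by 0.12 in alveolar macrophages and by 0.08 or less elsewhere.

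Fibroblast members past 2-fold (1 of 22) are given here with the share of all genes in brackets. There were 0 of 18 in barcodes of 1 gate (9.41%), 0 of 23 with 25% mitochondrial UMIs (6.12%), 0 of 15 with Dcn alone (17.2%) and 0 of 19 in female barcodes (9.53%). There were 2 of 22 with 1000 genes (6.37%), 2 of 16 after thinning (7.76%) and 3 of 22 without mural or mesothelial marker barcodes (6.65%). There were 4 of 22 past 1.5-fold (17.9% of all genes) and 8 of 39 with no minimum count (23.9%). Of endothelial members (6 of 16), there were 1 of 3 in barcodes of 1 gate (7.27% of all genes) and 1 of 3 in male barcodes (15.6%). There were 0 of 2 after thinning (7.59%), 3 of 12 in female barcodes (8.78%) and 4 of 13 without leukocyte marker barcodes (6.47%). There were 8 of 15 with the stricter gate (6.7%), 7 of 13 without the 3 richest barcodes (7.15%) and 7 of 16 with Cdh5 alone (7.03%). Without high doublet scores there were 6 of 11 (6.43%), and with 1000 genes 6 of 15 (6.86%). There were 10 of 16 past 1.5-fold (19.2%) and 14 of 29 with no minimum count (27.2%). The fibroblast gate's share of collagen UMIs, 57.1% with oil and 55.8% with tamoxifen, was 55.1% and 46.5% when another gate excluded a barcode, 55.9% and 52.8% without high doublet scores, 51.5% and 52.0% with the stricter gate, 19.4% and 13.6% with Dcn alone, 50.0% and 47.1% after thinning, 45.3% and 47.5% without the 3 richest barcodes, 45.9% and 53.9% without mural or mesothelial marker barcodes, 41.4% and 32.4% without leukocyte marker barcodes, and 60.9% and 63.6% in male barcodes.

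Of 554 ratios of single members under these alternatives, 89 had the other sign. In 82 of these the interval of the ratio as reported already included 0, and in 7 it did not. The 7 were, in fibroblasts, Col4a1 (0.088 in barcodes of 1 gate, 0.049 without mural or mesothelial marker barcodes) and Col3a1 (0.47 without those barcodes, 0.32 in female ones), and in endothelium Col4a4 (0.32 with the stricter gate, 0.15 with Cdh5 alone) and Col6a3 (0.28 after thinning). The cause was not tested. With 1 choice changed at a time from the gate as defined, Col14a1 in C1q macrophages ranged from -0.95 to -0.19 and Col27a1 there from -1.17 to -0.64, each below 0 under 12 of 12 alternatives. Col27a1 was below 0 under each alternative run in cDC1 (-0.89 to -0.04), T cells (-1.26 to -0.28) and alveolar macrophages (-3.13 to -0.76), and Col15a1 above 0 in alveolar macrophages (0.21 to 1.20, no interval without 0). With 2 choices changed, barcodes of 1 gate and female only, a combination chosen after seeing the data, the ratios were -0.096 (-0.26 to 0.07) for Col14a1 in C1q macrophages, -0.077 for Col27a1 in T cells, -0.39 for Col27a1 and -0.040 for Col15a1 in alveolar macrophages, all with intervals that included 0.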

Other observations

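Genes in this section were chosen after their values were seen. Col6a3 appeared in a small set of oil T cells. Within the T gate alone it had 24 UMIs in 16 of 2506 oil barcodes and 1 UMI in 4015 tamoxifen barcodes. Of the 16 barcodes, 15 were called female and 0 male, in a gate with 1647 female and 441 male oil barcodes. Each held at most 3 Col6a3 UMIs, with a median of 17 UMIs of the CD3 genes, and 15 had 0 UMIs of Dcn, Col1a1, Col1a2 and Col3a1. Il7r was found in 15, Rora in 13 and Ccr6 in 9, while Cd4, Trdc, Foxp3 and Itgae were found in 0. Cd8a and Ifng were found in 1 each, and Cd8b1 and Il17a in 2 each. The 16 barcodes held 30 UMIs of other collagens. Whether these genes set them apart from the other T cells was not tested.

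C1q macrophage barcodes with Col14a1 differed from those without it in other genes, in both libraries and in barcodes of 1 gate. The chemokine receptor Cx3cr1 stood at 355 against 193 CPM with oil and at 374 against 133 CPM with tamoxifen. C1qa, which helped to set the gate, stood at 5532 against 2918 CPM and 5640 against 2780 CPM, and the growth factor receptor Csf1r at 741 against 468 CPM and 640 against 415 CPM. Lower where Col14a1 was found were Timd4, a receptor for dying cells (6.84 against 23.7 CPM and 3.04 against 16.8 CPM), and the chemokine receptor Ccr2 (217 against 284 CPM and 231 against 290 CPM). The class II gene H2-Eb1 was close, 4535 against 4806 CPM with oil.

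In the fibroblast gate the collagen chaperone Serpinh1 had 866 and 514 UMIs, a log2 ratio of tamoxifen over oil of -0.62 (-0.79 to -0.47), and the prolyl hydroxylase subunit P4ha1 had 500 and 309, a ratio of -0.57 (-0.78 to -0.36). Within the gate alone the ratios were -0.51 and -0.60. Both lie short of 2-fold and on the same side in both sets of barcodes.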
